A study of Rattus norvegicus with 4 samples.

Results

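The genes described here are Myc, the D cyclins and other regulators of G1, the phase in which a cell commits to another division, in colon tissue of rats with and without mesenchymal stem cell transplantation (MSCT). They were chosen by name, as Myc, Ccnd1, Ccnd2, Ccnd3, Ccne1, Cdk2, Cdk4, Cdkn1a, Cdkn1b and Rb1, and each was taken from the row whose RefSeq accession maps to that symbol. Of these 10 genes, 8 had a measured row, 1 row each, among the 18350 rows with a value on all 4 arrays. No row carried an accession that maps to Ccne1 or Rb1 in the RefSeq gene table used, and these genes were not analysed here. Only 7068 of the 18350 measured rows could be named, so either gene may have a row under an accession that was not matched. Expression was measured on one-color NimbleGen arrays in male Sprague Dawley rats, with 2 control and 2 MSCT arrays, and age was not given in the sources used here. The sample titles number the arrays as replicates. Neither the titles nor the paper state that each array is a separate, unpooled rat, and each is called a rat below. In the MSCT group, colitis was induced with 2,4,6-trinitrobenzene sulfonic acid (TNBS) in ethanol given into the colon, and GFP-labeled mesenchymal stem cells were given through the tail vein on the following day. The control group had no transplantation. The series' design text and the paper call these animals IBD (inflammatory bowel disease) controls, and the sample descriptions call them normal. Whether they carried TNBS colitis is therefore not settled. The day of sampling after transplantation is given inconsistently by the sources, so no day is given here. RNA of host and transplanted cells was not separated.

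Myc is a transcription factor that raises the expression of genes for growth and ribosome building, and in the colon crypt it is a target of the Wnt signaling pathway. The D cyclins bind Cdk4 and its relative Cdk6, and cyclin E, encoded by Ccne1, binds Cdk2; both kinase complexes phosphorylate the retinoblastoma protein, encoded by Rb1, which then releases E2F factors that switch on S phase genes. The inhibitors p21, encoded by Cdkn1a, and p27, encoded by Cdkn1b, hold the Cdk2 complexes back.

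In the MSCT group, Myc was higher and Cdkn1b was lower than in the control group, and the other 6 measured genes differed by less than 0.42 on the log2 scale, which is the scale of all values below. Both inhibitor genes of the set, Cdkn1b and Cdkn1a, had lower values in the MSCT group without overlap between the groups. So did 24.5% of all measured rows and 1411 of the 6968 measured genes with a name. The groups overlapped for the kinase genes Cdk2 and Cdk4 and the cyclin gene Ccnd3. Differences were tested by limma, which fits a linear model to each row and pools information on the variance over rows. A screen with the limits of the study's methods, an unadjusted p under 0.05 and more than 2-fold change, was applied to the limma p. Cdkn1b was the 1 of 8 genes past this screen, which 4.63% of all measured rows passed. An unadjusted limma p under 0.05 was reached by Myc and Cdkn1b, 2 of 8 genes, and by 12.0% of all measured rows (12.3% of the 6968 measured genes with a name). After Benjamini-Hochberg adjustment over all rows, 0 of 18350 rows had a limma p under 0.05, against 2196 without adjustment. By a t-test with equal variances, called the plain t-test here, 0 rows passed after adjustment, against 1772 without it. The paper does not name the test behind its p limit for the arrays. The limma count of 0 depended on the settings of the fit. It was 387 with a variance that depends on intensity, and 247 of 9175 rows when the dimmer 50% of rows were left out. The setting with intensity-dependent variance also used limma's robust option, which limits the weight of rows with outlying variance. These changes were not run apart. With 2 arrays a group, the smallest two-sided p of an exact permutation test is 0.333, so the limma p-values rest on the variance pooled over rows. By the plain t-test, Ccnd1 and Cdkn1b had an unadjusted p under 0.05, also 2 of 8 genes, against 9.66% of all rows. With this t-test in the screen, Cdkn1b was again the 1 of 8 genes past it, and 388 of 18350 rows passed.

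RefSeq promoter sequences (assembly GRCr8) were matched for 5 of the 8 measured genes (Ccnd3, Cdk2, Cdk4, Cdkn1a and Cdkn1b), and 3 are shown: Cdk4 for its letters of the Myc site, Cdkn1a for those of the p53 site and Cdkn1b because it had the largest difference. Windows of 250 bases upstream of the start site were searched on both strands for the Myc E-box CACGTG, the TCF site CTTTGAT, the CCAAT box, the E2F site TTTCGCG and, by its consensus, the p53 half-site, and none of the matches in capitals overlapped another. Cdk4, which encodes the kinase partner of the D cyclins, had 3 E-boxes, shown in capitals; at least 1 E-box was held by 5.59% of the 33469 promoters searched and 3 or more by 0.0508%. The window lies at chr7:64771203-64771452 on the plus strand.
Cdk4: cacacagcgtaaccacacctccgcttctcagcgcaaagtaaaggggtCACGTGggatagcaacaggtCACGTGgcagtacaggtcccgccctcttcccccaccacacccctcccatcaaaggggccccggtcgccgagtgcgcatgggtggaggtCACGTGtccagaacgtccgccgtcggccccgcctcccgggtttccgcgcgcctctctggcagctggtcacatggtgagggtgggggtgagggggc
The upstream stretch of Cdkn1a, the classical target of p53, held 1 p53 half-site, shown in capitals, and 6.64% of all windows held at least 1. The stretch ends before the outermost annotated start and lies at chr20:7150682-7150819 on the plus strand.
Cdkn1a: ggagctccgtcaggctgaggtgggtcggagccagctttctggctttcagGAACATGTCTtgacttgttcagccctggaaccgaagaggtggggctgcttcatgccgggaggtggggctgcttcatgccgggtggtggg
For Cdkn1b, the surroundings of 1 of its 2 CCAAT boxes are shown, with the box in capitals (34.0% of all windows held one), at chr4:169491343-169491371 on the plus strand.
Cdkn1b: cccggcgcccagaCCAATggagctcctcc
Cdk4 also held the letters of the TCF site (3.15% of all windows), and no window of these genes held the E2F letters. These matches describe letters in a window and not bound sites.

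Myc (NM_012603) lay at 10.50 and 10.02 in the control rats, replicate 1 first, and at 11.18 and 11.33 in the MSCT rats. Both MSCT arrays were above both control arrays, and the control arrays lay further apart than the MSCT arrays. The difference was 1.00 (standard error 0.25, 95% confidence interval 0.34 to 1.66, limma adjusted p = 0.324), a 2.00-fold change that stayed just short of the limit of the screen before rounding. Of all measured rows, 93.6% had a smaller difference in size. The size of this difference depended on which arrays were used, at 0.76 when control replicate 2 was left out and 1.24 when control replicate 1 was. Without MSCT replicate 2 the unadjusted limma p was 0.0600, and by the methods' t-test, which does not share variance between rows, it was 0.0574. After quantile normalization (1.01) and with equal array medians (1.04) Myc passed the screen. The limma adjusted p was 0.0469 with a variance that depends on intensity and 0.0588 when the dimmer 50% of rows were left out.

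Of the D cyclin genes, Ccnd1 (NM_171992) lay at 12.83 and 12.71 in the control rats and at 13.22 and 13.16 in the MSCT rats. Its replicates lay close together and its groups did not overlap, and the difference of 0.42 (standard error 0.19, interval -0.08 to 0.91) had a limma adjusted p of 0.474. Without adjustment, limma gave a p of 0.0818 and the plain t-test 0.0267. Ccnd1, like Myc, is regarded as a target of Wnt signaling in the gut. Ccnd2 (NM_022267) lay at 12.87 and 13.18 in the control rats and at 13.26 and 13.54 in the MSCT rats. The lower MSCT value exceeded the higher control value by little, so that the gap between replicates was almost as large as the difference of 0.37 (standard error 0.23, interval -0.24 to 0.99, limma adjusted p = 0.567). Leaving out control replicate 1 gave a difference of 0.22, and leaving out control replicate 2 one of 0.53. For Ccnd3 (NM_012766), the cyclin D gene best known from lymphocytes, control rats had 12.17 and 11.76, and MSCT rats had 12.34 and 11.81. Here replicate 1 was the higher array in either group and the groups overlapped. The difference of 0.11 (standard error 0.29, interval -0.66 to 0.88, limma adjusted p = 0.899) was smaller than both gaps between replicates (0.41 and 0.53) and became -0.09 without control replicate 2 and -0.16 without MSCT replicate 1. With a variance that depends on intensity, Ccnd1 and Ccnd2 also had an unadjusted limma p under 0.05 (0.0122 and 0.0417).

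**Figure D1:**
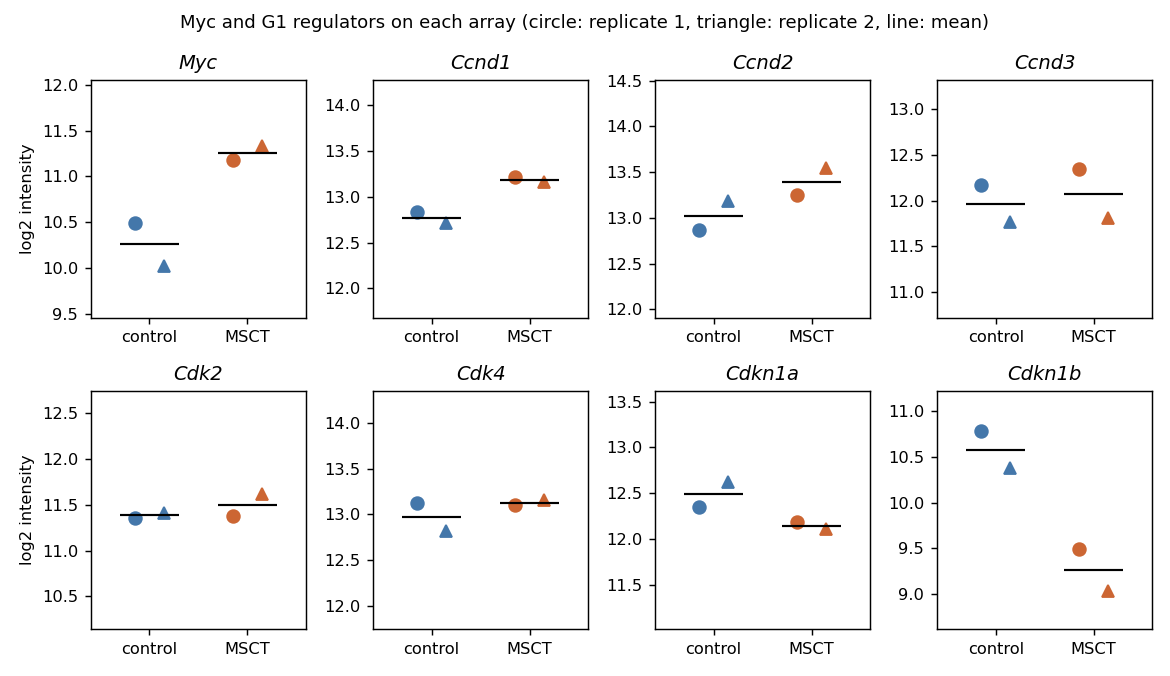
Log2 intensity (y axis, each panel spanning the same height) of the 8 measured genes on the 2 control arrays (blue) and the 2 MSCT arrays (orange), with circles for replicate 1, triangles for replicate 2 and lines for group means. Myc, Ccnd1 and Ccnd2 lie higher and Cdkn1a and Cdkn1b lower on both MSCT arrays, and the groups overlap for Ccnd3, Cdk2 and Cdk4.

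Neither kinase gene differed beyond the spread between its replicates. Cdk4 (NM_053593), the partner of the D cyclins, lay at 13.12 and 12.81 in the control rats and at 13.10 and 13.16 in the MSCT rats. Control replicate 2 was the low array, and the other 3 lay within 0.06 of each other. The difference was 0.16 (standard error 0.21, interval -0.39 to 0.72, limma adjusted p = 0.777), and 0.01 without control replicate 2. This is the gene whose promoter, with 3 E-boxes, is shown above. Cdk2 (NM_199501), the partner of cyclin E, lay at 11.36 and 11.42 in the control rats and at 11.38 and 11.62 in the MSCT rats. Its difference was 0.11 (standard error 0.20, interval -0.42 to 0.64, limma adjusted p = 0.846), and MSCT replicate 2 was the one array above both control arrays. For both kinases the interval leaves out a change of 2-fold in either direction.

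The inhibitor gene Cdkn1b (NM_031762) had the largest difference of the set. It lay at 10.78 and 10.38 in the control rats and at 9.49 and 9.03 in the MSCT rats, with replicate 1 the higher array in each group. The lower control array was thus well above the higher MSCT array. The difference was -1.32 (standard error 0.27, interval -2.05 to -0.59), so that its intensity was 2.49-fold lower in the MSCT group, with an unadjusted limma p of 0.00640 and an adjusted p of 0.289. Of all measured rows, 97.5% had a smaller difference in size. Leaving out any 1 of the 4 arrays gave differences from -1.55 to -1.09. By the plain t-test with all 4 arrays the unadjusted p was 0.0496. Over the other limma settings with all 4 arrays, the adjusted p ranged from 0.0388, with a variance that depends on intensity, to 0.300, and it was 0.0389 when the dimmer 50% of rows were left out before the fit.

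The second inhibitor gene, Cdkn1a (NM_080782), lay at 12.35 and 12.62 in the control rats and at 12.18 and 12.11 in the MSCT rats. The MSCT arrays were the lower ones without overlap, but the distance from control replicate 1 to the nearer MSCT array was smaller than the gap between the control arrays. The difference was -0.34 (standard error 0.20, interval -0.88 to 0.20, limma adjusted p = 0.559), and it lay between -0.47 and -0.21 with each array left out. In all, the groups did not overlap for 5 of 8 genes, 3 with higher and 2 with lower values in the MSCT group. This held for 45.8% of all measured rows (21.3% higher and 24.5% lower). Of the 6968 named genes, 1925 were higher and 1411 lower without overlap. The difference was above 0 for 6 of 8 genes, against 48.0% of all rows and 55.8% of named genes. The median difference of the 8 genes was 0.14, against -0.02 over all rows and 0.05 over the named genes. Leaving out control replicate 2 gave 0.07, leaving out control replicate 1 gave 0.27, and leaving out MSCT replicate 1 gave 0.21.

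**Figure D2:**
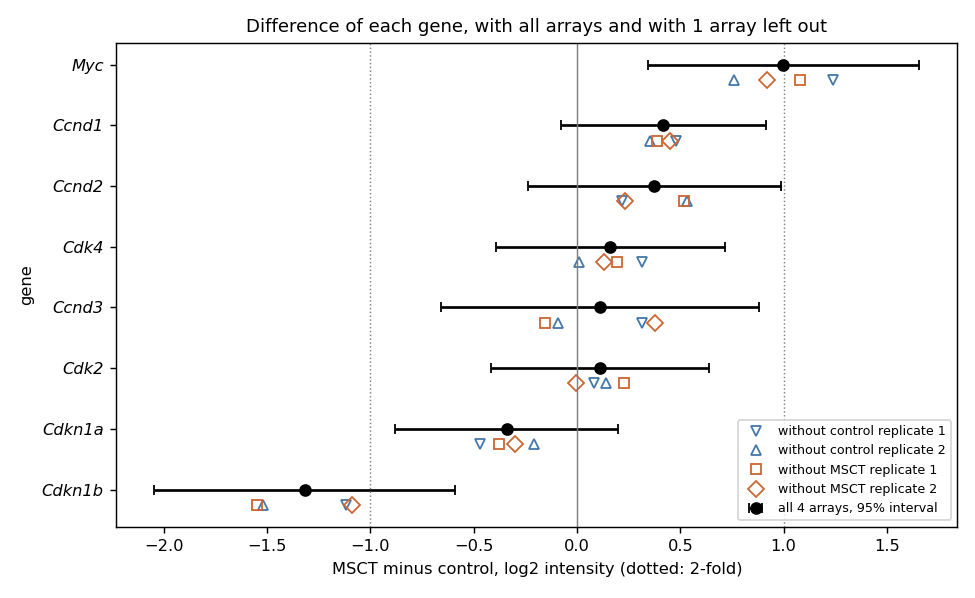
Difference between the MSCT and the control group (x axis, log2 intensity) for each gene (y axis), with black points and bars for the limma estimate from all 4 arrays and its 95% confidence interval, and open symbols for the difference with 1 array left out. The intervals of Myc and Cdkn1b leave out 0, and symbols of Ccnd3 and Cdk2 fall on both sides of 0.

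**Figure D3:**
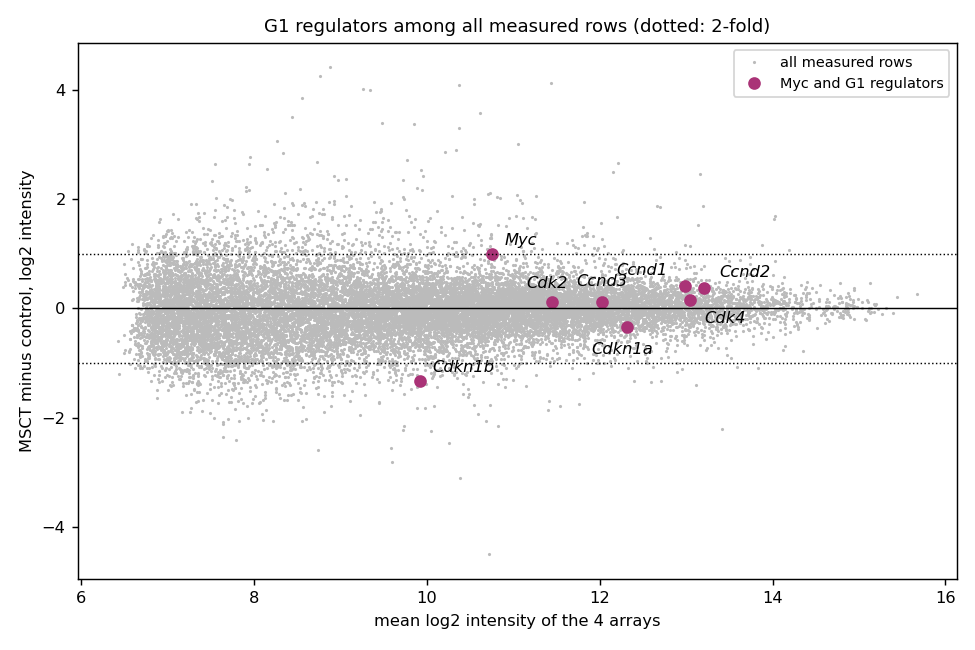
Difference between the MSCT and the control group (y axis, log2 intensity) against the mean log2 intensity of the 4 arrays (x axis), for all 18350 measured rows (grey) and the 8 genes (purple); dotted lines mark 2-fold. Myc lies on the upper dotted line and Cdkn1b below the lower one, and the other 6 genes lie within the main cloud of rows.

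The wider pathway was read through 8 lists of other genes, 123 genes in all, of which 67 had a measured row. The MSCT group had the higher mean for 37 of these 67 genes and the lower mean for 30, with a median difference of 0.04. An unadjusted limma p under 0.05 was reached by 3 genes with higher and 6 with lower values. The shares of all rows in these directions were 4.80% and 7.17%, and of the 6968 named genes 475 and 379 reached it. The counts of each list below stand against these shares. No gene of these lists had an adjusted p under 0.260 in this fit. This count of 9 fell to 2 without MSCT replicate 1 and to 5 without MSCT replicate 2.

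In the list of genes known as targets of Myc, 16 of 17 were measured. Of these, 2 had an unadjusted limma p under 0.05 with higher values in the MSCT group. So did 4.80% of all rows and 475 of 6968 named genes. The difference was above 0 for 15 of 16, against 48.0% of all rows and 55.8% of named genes, with a median of 0.32. For 11 the groups did not overlap, with higher MSCT values, against 21.3% of all rows and 1925 of 6968 named genes. The 2 genes with an unadjusted limma p under 0.05 were Nolc1 and Hspd1. Nolc1, which encodes a nucleolar protein of ribosome building, lay at 10.93 and 10.77 in the control rats and at 11.37 and 11.59 in the MSCT rats (difference 0.63, standard error 0.20, limma adjusted p = 0.366). Hspd1, which encodes a mitochondrial chaperone, lay at 11.92 and 12.14 in the control rats and at 12.54 and 12.63 in the MSCT rats (difference 0.56, standard error 0.20, limma adjusted p = 0.399). In both genes all MSCT values were above all control values, and neither had an unadjusted p under 0.05 with any 1 array left out. The other 14 targets differed by between -0.10 and 0.92.

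In the Myc network list, which holds relatives, partners and competitors of Myc, 8 of 14 genes were measured. Of these, 2 were higher and 6 lower in the MSCT group, with a median difference of -0.15. The difference was above 0 for 48.0% of all rows and 55.8% of named genes. Mxd3 was the one with an unadjusted limma p under 0.05, and the other measured genes differed by between -0.68 and 0.41. Mxd3, a gene of the Mad family whose products compete with Myc for the partner Max, lay at 7.21 and 7.27 in the control rats and at 6.46 and 6.74 in the MSCT rats (difference -0.64, standard error 0.20, limma adjusted p = 0.368). This row is among the dimmest 3.54% on the arrays, and its unadjusted p was 0.236 when the variance was allowed to depend on intensity and 0.0619 or more with 1 array left out.

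In the list of E2F targets and proliferation genes, which act in S phase and mitosis, 9 of 20 were measured and 1 of these, Cdk1, had an unadjusted limma p under 0.05. The difference was below 0 for 8 of the 9 and above 0 for 1, against 48.0% above 0 over all rows and 55.8% over named genes, and the median was -0.32. The groups did not overlap, with lower MSCT values, for 3 of the 9, against 24.5% of all rows and 1411 of 6968 named genes. The proliferation marker Mki67 and Top2a were not matched to a row. Cdk1, the kinase that drives mitosis, passed the screen, with 9.75 and 9.74 in the control rats against 8.54 and 8.48 in the MSCT rats. These replicates lay within 0.06 of each other in each group, and the difference was -1.23 (standard error 0.18, limma adjusted p = 0.260), with -1.27 to -1.20 when each array was left out. In the separate list of partners of the G1 kinases, where 5 of 10 genes were measured, Ccna2, which encodes cyclin A, was the one with an unadjusted limma p under 0.05. It lay at 10.06 and 10.22 in the control rats and at 9.12 and 9.17 in the MSCT rats. Its difference was -0.99 (standard error 0.19, limma adjusted p = 0.282), without overlap and with -1.07 to -0.91 when each array was left out. The other 8 genes of the S phase list differed by between -0.47 and 0.18, and the 4 other measured partners of the kinases by between 0.02 and 0.65.

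Besides Cdkn1b, 1 gene in the list of other inhibitors and their turnover had an unadjusted p under 0.05. Cdkn2b, which encodes the p15 inhibitor of Cdk4 and Cdk6, lay at 12.44 and 12.17 in the control rats and at 11.73 and 11.75 in the MSCT rats. The difference was -0.56 (standard error 0.20, limma adjusted p = 0.409), and the unadjusted limma p was 0.0590 with equal array medians and 0.0433 to 0.166 with 1 array left out. The other 7 measured genes of this list differed by between -0.22 and 0.31. The Rb and E2F list was thinly covered, with 3 of 18 genes measured (Rbl2, Tfdp1 and Hdac1) and differences between -0.04 and 0.08.

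In the list of p53 and its targets, 10 of 14 genes were measured. Of these, 2 had an unadjusted limma p under 0.05, both with lower values in the MSCT group. The same call was made for 7.17% of all rows and 379 of 6968 named genes. Tp53inp1, a p53-induced regulator of cell death, lay at 10.26 and 10.56 in the control rats and at 9.43 and 9.54 in the MSCT rats (difference -0.92, standard error 0.21, limma adjusted p = 0.307, and 0.0481 when the dimmer 50% of rows were left out). Plk2, a polo-like kinase, lay at 12.33 and 12.01 in the control rats and at 11.40 and 11.48 in the MSCT rats (difference -0.72, standard error 0.21, limma adjusted p = 0.344). Like Cdkn1a, whose promoter is shown above, both were lower on both MSCT arrays, and with 1 array left out their unadjusted limma p was 0.0138 to 0.0549 and 0.0231 to 0.106. The other 8 genes of the list differed by between -0.39 and 0.47. Of the 10 genes, 4 were lower and 2 higher without overlap between the groups, against 24.5% and 21.3% of all rows. In the list of the Wnt pathway and its targets, 8 of 15 genes were measured and Cd44, a cell surface receptor for hyaluronan, was the one with an unadjusted p under 0.05. It lay at 8.73 and 9.52 in the control rats and at 10.37 and 9.86 in the MSCT rats (difference 0.99, standard error 0.36, limma adjusted p = 0.412). Its unadjusted p was 0.169 by the plain t-test, and its difference was 0.60 to 1.38 with 1 array left out. The paper also used CD44 as a surface marker of the mesenchymal stem cells before transplantation. The part of transplanted cells or leukocytes in the Cd44 values was not tested. The other 7 genes of the Wnt list, which include the β-catenin gene Ctnnb1 and Axin2, differed by between -0.29 and 0.24.

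**Figure D4:**
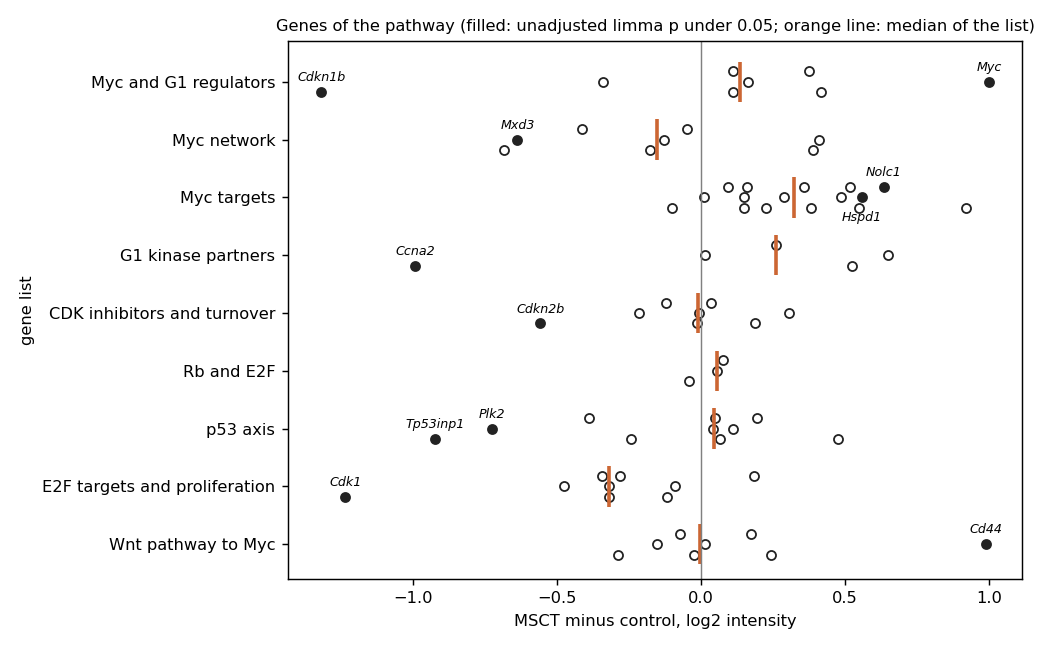
Difference between the MSCT and the control group (x axis, log2 intensity) of each measured gene in 9 lists (y axis), with filled points for an unadjusted limma p under 0.05 and an orange line for the median of the list. The Myc targets lie mostly above 0 (15 of 16 genes) and the E2F targets and proliferation genes mostly below 0 (8 of 9 genes).

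The tissue was colon wall, with epithelial and smooth muscle markers among the brightest rows. In such bulk tissue, fewer cells of a type and less RNA per cell cannot be told apart. The summed intensity of the 7 measured epithelial markers (of 9) was 120648 to 123466 on the control arrays and 127921 to 134092 on the MSCT arrays, and none of them had an unadjusted limma p under 0.05. For smooth muscle (5 of 7 measured) the sums were 141287 to 171485 and 154976 to 159204. For leukocytes (4 of 9 measured, Cd79b and Itgam blank on all arrays) the sum was 9676 to 12453 on the control arrays and 19539 to 22053 on the MSCT arrays, most of it from Cd74. Of these, Cd68 (1.29), Cd74 (0.88) and Lyz2 (0.88) had an unadjusted limma p under 0.05, and the T cell marker Cd3g overlapped between the groups (0.13). Goblet cell markers (2 of 7 measured, Zg16 and Tff3) summed to 2368 to 2857 and to 13240 to 14339, and both passed the screen (2.65 and 1.49). Fibroblast markers (4 of 6 measured) summed to 26068 to 39945 and to 43080 to 45099. Col1a2 (0.62) had an unadjusted limma p under 0.05, Col3a1 differed by 0.78, and Lum and Dcn differed by 0.03 and 0.01. Markers of neurons and glia (5 of 6) summed to 7478 to 7565 and to 5336 to 5708, where Elavl4 (-1.06) passed the screen and Uchl1 (-0.54) had an unadjusted p under 0.05. The part of these cells in the higher Myc and lower Cdkn1b values was not tested. The named genes whose 4 values, centered on their mean, lay nearest to those of Myc were Anpep, Cd74, Ltb, Azi2 and Bgn, at a root mean square distance of 0.05 to 0.08; with 4 arrays, this is a description of these arrays.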

How the data were processed

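Colon RNA of 4 samples was hybridized to one-color (Cy3) NimbleGen arrays by the authors, scanned with a GenePix scanner and extracted with NimbleScan. The authors deposited linear intensity values, 1 per RefSeq transcript and array; the submitters' processing notes name RMA, and the background correction and the rule for blank rows are not given in the sources used here. Of 26420 rows, 18350 held values on all 4 arrays and 8070 on none. Array medians ran from 848 to 893. Intensities were used as log2 values without pseudocount, further scaling or filter. limma 3.58.1 in R 4.3.3 (lmFit, eBayes) compared MSCT with control over all rows, with Benjamini-Hochberg adjustment over all rows. The number of arrays limits the precision. Accessions were matched without version to the GRCr8 table of RefSeq genes (7068 measured rows named), and the row with the highest mean was kept for each gene. Named are all 10 genes of the set, up to 3 genes per list and direction with the lowest p under 0.05, and 5 genes nearest to Myc. Ctnnb1, Axin2, Rbl2, Tfdp1 and Hdac1 fall outside this rule and were picked with their values in view. The genes and lists were chosen with earlier results of these data known. Alternatives were equal array medians, quantile normalization, the plain t-test and filters that drop the dimmest 25% or 50% of rows. Further ones were intensity-dependent variance with the robust option of limma, a replicate block and each array left out. The lowest row per gene, log2(intensity + 50) and a fold limit of 1.5 were also used. The fit was tested on simulated data. Python 3.11.15 was used for names, motifs and figures.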

Additional observations from a re-analysis of the deposited data

How the results depend on the processing

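The count of 1 gene past the screen became 2, with Myc beside Cdkn1b, after quantile normalization, with equal array medians and with a fold limit of 1.5, and it was 1 to 2 with each array left out. The count of 2 genes with an unadjusted limma p under 0.05 became 4 with an intensity-dependent variance and was 1 to 2 with each array left out. For the 67 other pathway genes the count of 9 was 2 to 11 with each array left out. The difference of Myc was 1.00 by the plain t-test, where it no longer had a p under 0.05, and 0.76 to 1.24 with each array left out. Differences that changed sign were those of Ccnd3 (-0.09 without control replicate 2, and -0.16 to 0.38 over the 4 arrays left out) and Cdk2 (-0.0065 without MSCT replicate 2, and up to 0.23). The median of the 8 genes was 0.07 to 0.27 with each array left out. Over all rows, 0 had a limma adjusted p under 0.05, but 387 did with an intensity-dependent variance, 247 without the dimmest 50% of rows and 4 without the dimmest 25%. The causes were not tested. Replicate numbers were shared between the groups, but no label ties same-numbered arrays. The correlation of their deviations over rows was 0.23 for the 2 pairs. Over all rows, control replicate 2 correlated more with MSCT replicate 2 (0.959) than with control replicate 1 (0.953). Control replicate 1 correlated less with MSCT replicate 1 (0.937) than with control replicate 2, and the MSCT replicates correlated at 0.964. With the replicate block, 2 of the 8 genes again had an unadjusted limma p under 0.05 and 1 passed the screen, and Cdkn2b and Cd44 no longer had one (0.0563 and 0.0682). All differences rest on 2 arrays per group.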
